A study of Mus musculus with 14 samples.

Results

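The pluripotency genes Pou5f1, Nanog, Sox2, Klf4, Sall4, Lin28a, Esrrb, Zfp42, Tfcp2l1 and Prdm14 were followed in chromatin of ATDC5 cells, a mouse line derived from a teratocarcinoma, a germ cell tumour that can hold pluripotent stem cells, and used as a culture model of cartilage formation. The genes were chosen by name, as 10 of 21883 protein-coding genes, with earlier results of these data known. Every peak that overlapped a gene's span extended by 5 kb on each side was taken. The study mapped H3K4me3, the trimethylation of histone H3 that marks active and poised promoters, and RUNX2, a runt-domain transcription factor of bone and hypertrophic cartilage, by chromatin immunoprecipitation with sequencing (ChIP-seq). Chromatin came from day 0 cells and from cells differentiated in dense droplets with β-glycerophosphate and an ascorbate until day 3 or day 10, with 2 libraries for each antibody and day, numbered 1 and 2. All groups share a single cell line, for which the labels name no engineered allele. The labels do not say if replicates 1 and 2 were grown apart, and the spread within a day, with every p based on it, may be of technical origin only. The lists held 13765 to 29022 H3K4me3 peaks, 16859 and 19319 RUNX2 peaks on day 3, and 97 to 108 RUNX2 peaks on days 0 and 10. The 2 input libraries were not used here.

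OCT4 (encoded by Pou5f1), SOX2 and NANOG form the core of the transcription factor circuit that keeps embryonic stem cells undifferentiated, each factor binding the genes of the others. KLF4, ESRRB, TFCP2L1 and PRDM14 hold the circuit in its naive state, SALL4 binds beside OCT4, LIN28A blocks maturation of the let-7 microRNAs, and ZFP42 (also called REX1) is a reporter of that state. Several of them are not confined to stem cells: SOX2 and KLF4 also act in neural, epithelial and mesenchymal cells. H3K4me3 is laid down mainly at promoters rich in CG dinucleotides, through enzyme complexes that recognise unmethylated CG.

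The bases before the gene starts are shown because the genes with and without a promoter peak differed in CG content. For each gene the 250 bases before the first RefSeq start are given in GRCm38.p6, 5′ to 3′ on the gene's strand, with every CG in capitals. Sox2, Klf4 and Tfcp2l1 had an H3K4me3 peak over the start in both day 3 libraries, and Nanog, Pou5f1 and Zfp42 had none there.
Sox2 (chr3:34649745-34649994, plus strand): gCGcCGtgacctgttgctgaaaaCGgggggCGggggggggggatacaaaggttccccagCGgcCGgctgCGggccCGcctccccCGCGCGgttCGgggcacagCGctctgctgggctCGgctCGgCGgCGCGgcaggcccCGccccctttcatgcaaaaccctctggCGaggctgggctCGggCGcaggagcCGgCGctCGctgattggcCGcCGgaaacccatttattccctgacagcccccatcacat
Klf4 (chr4:55532476-55532725, minus strand): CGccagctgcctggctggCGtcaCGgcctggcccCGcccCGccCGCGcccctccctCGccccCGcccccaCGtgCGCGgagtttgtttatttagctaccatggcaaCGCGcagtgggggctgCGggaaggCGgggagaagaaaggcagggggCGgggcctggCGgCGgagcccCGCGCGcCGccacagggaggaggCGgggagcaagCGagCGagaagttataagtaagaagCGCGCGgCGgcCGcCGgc
Tfcp2l1 (chr1:118627695-118627944, plus strand): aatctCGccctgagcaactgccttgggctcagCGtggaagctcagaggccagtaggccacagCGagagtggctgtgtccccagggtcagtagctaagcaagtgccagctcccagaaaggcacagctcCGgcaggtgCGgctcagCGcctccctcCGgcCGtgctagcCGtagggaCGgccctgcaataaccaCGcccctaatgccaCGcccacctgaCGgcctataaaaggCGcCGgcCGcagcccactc
Nanog (chr6:122707239-122707488, plus strand): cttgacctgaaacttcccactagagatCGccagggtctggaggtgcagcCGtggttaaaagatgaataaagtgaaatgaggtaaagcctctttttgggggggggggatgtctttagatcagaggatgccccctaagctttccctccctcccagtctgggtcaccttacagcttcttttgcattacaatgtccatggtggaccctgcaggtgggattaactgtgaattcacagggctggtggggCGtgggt
Pou5f1 (chr17:35505782-35506031, plus strand): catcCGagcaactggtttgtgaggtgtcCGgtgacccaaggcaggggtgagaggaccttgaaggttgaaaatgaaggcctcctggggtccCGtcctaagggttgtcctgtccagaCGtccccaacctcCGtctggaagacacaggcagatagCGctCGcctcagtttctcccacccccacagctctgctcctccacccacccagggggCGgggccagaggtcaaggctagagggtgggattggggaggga
Zfp42 (chr8:43307010-43307259, minus strand): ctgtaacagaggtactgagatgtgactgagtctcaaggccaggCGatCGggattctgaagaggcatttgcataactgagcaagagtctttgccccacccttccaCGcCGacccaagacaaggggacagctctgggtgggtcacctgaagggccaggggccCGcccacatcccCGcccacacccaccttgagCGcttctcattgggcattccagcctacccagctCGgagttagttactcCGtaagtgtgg

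In the shown windows Klf4 had 32 CG, Sox2 27 and Tfcp2l1 16, while Zfp42 had 9, Pou5f1 8 and Nanog 3. RefSeq windows were matched for 8 of the 10 genes, not for Sall4 and Prdm14, so that Sall4, which was called on day 3, is not in this contrast. Lin28a had 7 CG, and Esrrb had 6 before its first start and 3 before its second. The 3 genes with a promoter peak had more CG than the other 5 with a window, and 94.1%, 89.0% and 65.9% of 21254 windows of protein-coding genes had fewer CG than Klf4, Sox2 and Tfcp2l1. The median window had 10. Across the genome the share of called genes also rose with CG number. This share counts an own peak anywhere in the span extended by 5 kb, not only over the start. By that measure Nanog, with 3 CG, was called on day 3, while Zfp42, Pou5f1, Lin28a and Esrrb were not. With each gene placed by its richest window, an H3K4me3 peak of its own in both day 3 libraries was called at 11.4% of 4893 genes with 0 to 3 CG, 53.8% of 4207 genes with 4 to 11, 81.2% of 4257 genes with 12 to 20 and 83.7% of 4128 genes with 21 to 56.

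**Figure D1:**
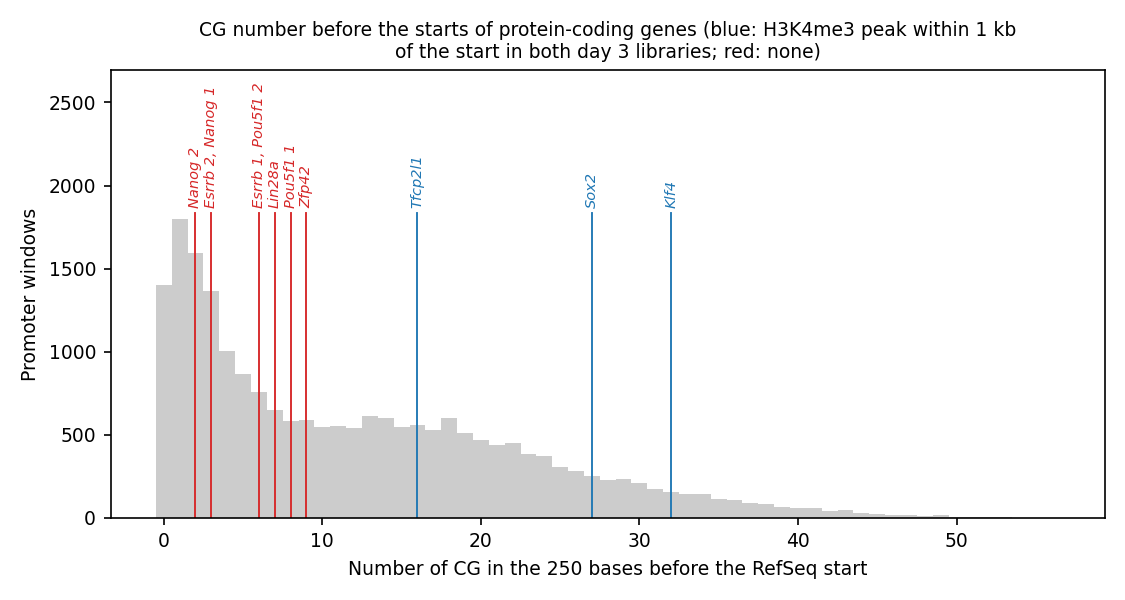
Histogram of the number of CG (x axis) in 21254 windows of 250 bases before RefSeq starts of protein-coding genes, with the number of windows on the y axis. Vertical lines mark the pluripotency genes, blue with an H3K4me3 peak within 1 kb of the start in both day 3 libraries and red without, numbered 1 and 2 where RefSeq gives 2 starts; the blue lines stand at 16, 27 and 32 and the red ones between 2 and 9.

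The heptamer ATGCAAA, the core of the octamer bound by POU factors such as OCT4, was searched on both strands of these windows. It was found at Sox2, Nanog and Zfp42, and in 3.86% of all windows. The sites are shown with the heptamer or its reverse complement TTTGCAT in capitals.
Sox2 (chr3:34649886-34649912, plus strand): gccccctttcATGCAAAaccctctggc
Nanog (chr6:122707404-122707430, plus strand): tacagcttctTTTGCATtacaatgtcc
Zfp42 (chr8:43307178-43307204, minus strand): tgaagaggcaTTTGCATaactgagcaa

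Counted from the base before the first start, the heptamer began at position -99 in Sox2, -75 in Nanog and -185 in Zfp42. Of these 3 genes, Sox2 alone had H3K4me3 peaks over the site on day 3. The RUNX core, searched on both strands as TGTGGT or TGCGGT, was in none of the windows of the 8 genes and in 17.7% of all windows. These are matches of letters and not measurements of binding.

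A peak was counted as a gene's own when its summit lay nearest to an end of that gene among protein-coding genes, or inside the gene with no other such end within 1 kb. Of 75 peaks in the windows, 60 were own peaks of 6 genes and 15 belonged to neighbours, out of 170889 peaks in all lists. A gene was called on a day when both libraries had an own peak. H3K4me3 was called at 2 genes on day 0 (Sox2 and Klf4), against 46.1% of all protein-coding genes, at 5 on day 3 (Sox2, Klf4, Nanog, Sall4 and Tfcp2l1), against 55.4%, and at 4 on day 10 (Sox2, Klf4, Nanog and Tfcp2l1), against 50.0%. Sox2 and Klf4 had it in all 6 lists, as did 42.9% of all genes, and Pou5f1, Lin28a, Zfp42 and Prdm14 in no list, as did 31.7%. RUNX2 was called at 4 genes on day 3 (Sox2, Klf4, Nanog and Tfcp2l1), against 53.8%, and at none on days 0 and 10, against 0.0228% and 0.0137%. The shares among the pluripotency genes, 20%, 50% and 40% for H3K4me3 and 40% for RUNX2, were below or near those of all genes, with day 0 farthest below. On day 0, 2 genes had an own peak in replicate 1 (13765 peaks) and 6 in replicate 2 (20863 peaks). A call needs both libraries, so the low share of day 0 was set by replicate 1. Whether the length of its list was the reason was not tested. With lists cut to equal numbers of top peaks, 2 and 3 genes had an own peak on day 0, against 4 and 3 on day 3. Whether a missing peak means fewer cells with the mark or less of it per cell cannot be told apart, and the depth of the libraries is unknown.

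**Figure D2:**
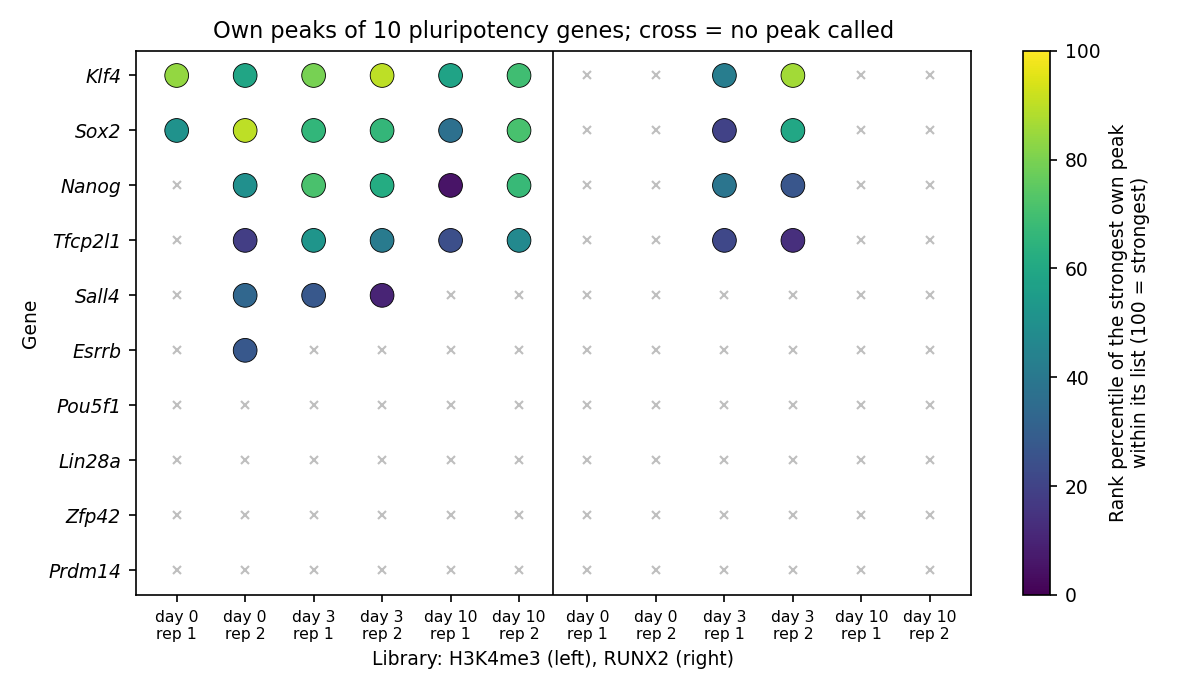
Own peaks of each pluripotency gene (rows) in each library (columns, H3K4me3 left of the line and RUNX2 right of it). Colour gives the rank percentile of the gene's strongest own peak within its list, where 100 is the strongest peak, and a cross means that no own peak was called; Klf4 and Sox2 are filled in all 6 H3K4me3 columns, and Pou5f1, Lin28a, Zfp42 and Prdm14 in none.

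**Figure D3:**
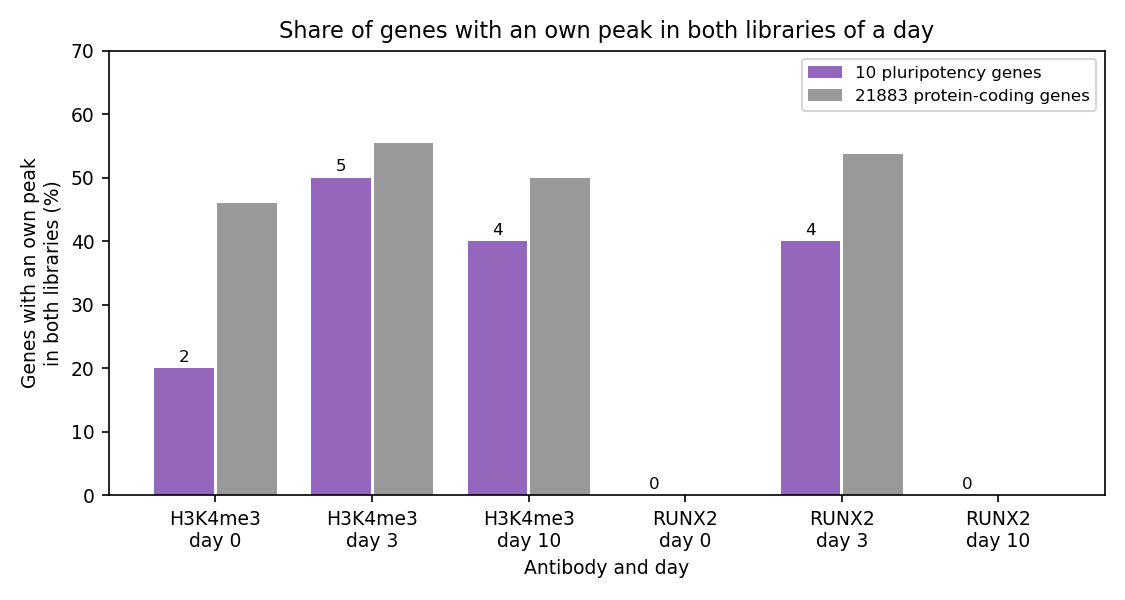
Percentage of genes with an own peak in both libraries (y axis) by antibody and day (x axis), for the 10 pluripotency genes (purple, with their number above the bar) and 21883 protein-coding genes (grey). The purple bars stand at 20%, 50% and 40% for H3K4me3, each below its grey bar, and at 40% for RUNX2 on day 3.

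Of the core factors, Sox2 carried the widest H3K4me3. Sox2 (gene ID 20674, chromosome 3, 34649995 to 34652461, inside the long noncoding gene Sox2ot) encodes an HMG-box factor that binds DNA together with OCT4. Its own H3K4me3 peaks summed to 1745 bp in replicate 1 and 6138 bp in replicate 2 of day 0. The sums were 9615 and 8837 bp for day 3, and 4351 and 9696 bp for day 10. Both day 3 libraries were above both day 0 libraries, while the 2 libraries of day 10 lay on either side of the 6138 bp of day 0. A single peak from 34648051 to 34657746 made up the 9696 bp of day 10, and 0.0413% of the peaks of that list were at least as wide. On day 3 a peak of 7908 bp in replicate 1 ran from 34647963 to 34655870 (0.140% at least as wide), followed by a second peak from 34655982 to 34657688. Replicate 2 had 3 peaks of 2449 to 3375 bp between 34648356 and 34657756. The domain had a summit 436 to 515 bp before the start in 5 lists and another 6935 to 7243 bp after it in 5 lists. Because Sox2 lies within Sox2ot, the marks of the 2 genes cannot be told apart.

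The strongest Sox2 peak had a fold enrichment at its summit, the authors' ratio to the local background, of 6.31 and 12.1 in the day 0 lists, 19.5 and 11.0 in those of day 3, and 10.1 and 14.3 in those of day 10. These ratios depend on each library, so ranks within a list were used to place a peak. The strongest peak of Sox2 outranked 50.6 and 90.1% of its list at day 0, 65.9 and 66.2% at day 3, then 36.5 and 71.0% at day 10. It stood in the middle to upper part of the lists except in replicate 1 of day 10, where it stood in the lower part. These percentages, here and below, also depend on the length of the list. On day 10 the peak ranked 9665 in the list of replicate 1 (15219 peaks) and 8413 in that of replicate 2 (29022 peaks).

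Nanog (gene ID 71950, chromosome 6, 122707489 to 122714633) encodes the homeodomain factor of the core circuit, and its marks lay upstream of the gene rather than at it. No H3K4me3 peak touched the span or either RefSeq start in any list. A region upstream had an own H3K4me3 peak in replicate 2 of day 0 (122702707 to 122703753, fold enrichment 6.59) and none in replicate 1. On day 3 it had one in both libraries, from 122702300 to 122704243 (18.0) and from 122702681 to 122704041 (7.23). On day 10 both libraries again had one, from 122703199 to 122703564 (3.32) and from 122702398 to 122704073 (8.82). The edge nearest to the gene was 3246 to 3925 bp away, and the summits lay 3952 to 4602 bp before the start. The peak of replicate 1 of day 10 was weak, outranking 5.37% of its list, against 49.9 to 71.2% in the other 4. Upstream of the region the nearest annotated gene is the pseudogene Gm10224, and for 3 of the 5 summits its end was nearer (3819 to 3988 bp) than the start of Nanog. Giving the region to Nanog is therefore a matter of the rule. With windows of 1 kb Nanog had no peak, and with the ends of all annotated genes in place of protein-coding ones its H3K4me3 calls of days 3 and 10 were lost.

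Pou5f1 (gene ID 18999, chromosome 17, 35506032 to 35510777), the gene of OCT4, had no own peak of either antibody in any of the 12 lists. The peaks in its window belonged to the neighbours Tcf19 and Cchcr1, whose adjoining ends lie downstream of Pou5f1. This neighbouring H3K4me3 was strong. Its fold enrichments were 7.25 and 7.70 at day 0, 30.0 and 9.08 at day 3 and 10.5 for replicate 2 of day 10, and these peaks outranked 78.1 to 94.4% of their lists. In replicate 1 of day 10 it ran from 35515786 to 35517880 and stayed outside the window, 5009 bp from the gene. The edge nearest to Pou5f1 was 4197 to 5009 bp away over the 6 lists. On day 3 RUNX2 peaks with a summit at 35516507 in both libraries lay at the same neighbours (5.58 and 10.5).

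Among the factors of the naive state, Klf4 was marked throughout. Klf4 (gene ID 16600, chromosome 4, 55527137 to 55532475, minus strand) encodes a zinc finger factor of reprogramming that also acts in epithelia and mesenchyme. Its own H3K4me3 peaks summed to 3132 and 4443 bp at day 0, 5814 and 4606 bp at day 3, then 4778 and 6571 bp at day 10. All 4 later libraries were above both of day 0, with day 3 and day 10 overlapping. The main peak ran over the start into the gene body, from 55529334 to 55534603 in replicate 1 of day 3 (5270 bp, 0.740% of the list at least as wide) and from 55529433 to 55534038 in replicate 2 (0.459%). In replicate 1 of day 0 and of day 10 the domain was split near the start. The strongest peak outranked 58.0 to 90.0% of its list, with fold enrichments of 8.49 and 7.87 at day 0, 25.2 and 13.4 at day 3, then 14.2 and 7.24 at day 10. In 5 of the 6 lists a summit lay 726 to 1025 bp before the start of Klf4. There it was nearer (491 to 790 bp) to the noncoding gene Gm12506, so this part of the domain may count for either gene.

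Tfcp2l1 (gene ID 81879, chromosome 1, 118627923 to 118685168) encodes a CP2-family factor that acts downstream of LIF in mouse stem cells and is also used in kidney epithelium. It had a narrow promoter peak in 5 of 6 H3K4me3 lists, absent from replicate 1 of day 0. In replicate 2 of day 0 there were 2 weak peaks, of which the stronger had a fold enrichment of 4.70 and outranked 18.3% of the list. On day 3 the peak covered 118627592 to 118628567 (11.4) and 118627765 to 118628402 (5.79), and on day 10 118627728 to 118628515 (7.23) and 118627487 to 118628744 (6.78). Those 4 peaks outranked 52.0 and 41.0% of the lists of day 3 and 24.1 and 47.0% of those of day 10. All 4 summits lay 63 to 232 bp after the start. The peaks were 638 to 1258 bp wide, far narrower than the domains of Sox2 and Klf4.

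Sall4 (gene ID 99377, chromosome 2, 168748332 to 168767201) encodes a zinc finger partner of OCT4, and was the only gene of the 10 that lost a called H3K4me3 mark. It had H3K4me3 in replicate 2 of day 0, in both libraries of day 3 and in neither of day 10, a loss shared by 0.964% of all protein-coding genes between days 3 and 10. The peaks were weak. Fold enrichments of the strongest were 6.70 in replicate 2 of day 0, and 5.23 and 3.97 on day 3, and they outranked 33.0, 27.0 and 10.0% of their lists. The peaks of the 2 day 3 libraries (168765539 to 168766054 and 168766658 to 168766885 in replicate 1, 168766048 to 168766498 in replicate 2) shared 7 bp. They lay at the upper end of the span, where the noncoding gene Gm14261 overlaps it. The day 3 call, and with it the loss, did not hold when the −log10 q had to reach 5, when lists of equal length were compared, or when the ends of all annotated genes decided whose peak it was.

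Esrrb (gene ID 26380, chromosome 12, 86361117 to 86521628), encoding an orphan nuclear receptor, had 1 small peak in the study. In replicate 2 of day 0 it covered 86421870 to 86422098, with a fold enrichment of 5.99 and a summit 314 bp after the second RefSeq start, which lies inside the gene. No other list had a peak in the window. Prdm14 (gene ID 383491, chromosome 1, 13113428 to 13127163), a PR-domain factor of naive and germ cells, had none in any list. Its nearest H3K4me3 peak was 6648 bp away in replicate 1 of day 0 and 120379 to 120651 bp away in the other lists.

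Of the remaining 2 genes neither had an own peak. Zfp42 (gene ID 22702, chromosome 8, 43295067 to 43307009, minus strand), the gene of REX1, stood in a region with little H3K4me3, its nearest peak 74232 to 1627638 bp from the span. Lin28a (gene ID 83557, chromosome 4, 134003330 to 134019196, minus strand), encoding an RNA-binding protein, had peaks of its neighbour Dhdds in the window in all 6 lists. Those had fold enrichments of 4.87 and 6.69 at day 0, 22.8 and 7.42 at day 3, then 13.9 and 10.3 at day 10. They ended 1668 to 2339 bp short of the Lin28a span and 17154 to 17825 bp from its start. With neighbours counted, Lin28a would be called on all 3 days and Pou5f1 on days 0 and 3. H3K4me3 then stood at 4 genes on day 0, 7 on day 3 and 5 on day 10, against 54.8%, 64.3% and 59.4% of all genes counted in the same way. RUNX2 on day 3 then stood at 6 of the 10 genes, against 61.1%.

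The number of the 10 genes with an own H3K4me3 peak was compared between days over libraries. It was 5 and 5 on day 3, against 2 and 6 on day 0, a difference of 1 between the means of 5 and 4 ± 2.83 (SD, n = 2; two-sided exact permutation p = 1). The libraries of day 0 stood on either side of those of day 3. It was 4 and 4 on day 10, against 5 and 5 on day 3, a difference of -1 that rests on Sall4 (two-sided exact permutation p = 0.333, the smallest that 2 against 2 libraries allow, so that no such comparison could pass 0.05). Day 10 and day 0 both averaged 4. Between day 3 and day 0, and likewise between day 10 and day 0, 0 of the 10 genes gained a called peak (neither library of day 0 and both of the later day), against 3.85% and 1.37% of all genes. The same 2 comparisons had 0 losses among the 10 genes, against 0.653% and 0.292%, and 0 of the 10 genes gained a peak between day 10 and day 3, against 0.425%. Replicate 2 of day 0 already had peaks at Nanog, Sall4, Tfcp2l1 and Esrrb that replicate 1 lacked. Replicate 1 had the shorter list, 13765 peaks against 20863. Without replicate 1 of day 0 the difference between day 3 and day 0 was -1, and without replicate 2 it was 3.

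RUNX2 on day 3 lay at 4 of the 5 genes with H3K4me3 on that day, Sall4 being the fifth. Over all protein-coding genes 90.4% of 12127 genes with H3K4me3 on day 3 also had RUNX2, so 4 of 5 is near the background. Both marks together stood at 4 of the 10 genes, against 50.1% of all genes. No list of day 0 or day 10 had a RUNX2 peak in any of the 10 windows. The number of genes with an own RUNX2 peak was 4 and 4 on day 3, against 0 and 0 on day 0 (two-sided exact permutation p = 0.333, the smallest possible), and 0 and 0 on day 10, against 4 and 4 on day 3 (p = 0.333, exact permutation). The lists of days 0 and 10 held 97 to 108 peaks, against 16859 and 19319 on day 3, so a contrast of this kind was called at 53.7% of all genes between day 3 and day 0. Between day 10 and day 0, 0 of the 10 genes lost a RUNX2 peak, against 0.00914%.

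The strongest RUNX2 summits of each gene in the 2 libraries of day 3 lay within 18 bp of each other. At Lif, a gene outside the 10, both libraries had a RUNX2 peak with the same bounds (4266741 to 4267070) and fold enrichment (3.81). Whether the 2 libraries are independent was not tested, so close summits are not a measure of replication. At Sox2 the strongest RUNX2 summit lay 419 and 420 bp after the start, inside the gene, with fold enrichments of 2.58 and 14.4. The peak was 1451 bp wide in replicate 1 and 7211 bp in replicate 2, where a second peak lay 6667 bp after the start. At Klf4 it lay 1011 and 1017 bp after the start (fold enrichments 3.72 and 17.0, widths 1936 and 4593 bp). For both genes replicate 2 was the higher and wider, and its list had the higher median fold enrichment, 10.1 against 6.25.

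At Tfcp2l1 the RUNX2 summits were 169 and 187 bp after the start, with fold enrichments of 5.48 and 4.95, and at Nanog 3986 and 3989 bp before it, with 5.70 and 5.44. These 2 genes had nearly equal values in both libraries. The summits of the 2 libraries differed by 1 bp at Sox2, 6 bp at Klf4, 3 bp at Nanog and 18 bp at Tfcp2l1, and each of these strongest summits was inside an H3K4me3 peak of both day 3 libraries. The distance to the nearest H3K4me3 summit was 894 to 935 bp at Sox2, 586 to 616 bp at Nanog, 106 to 1753 bp at Klf4 and 7 to 124 bp at Tfcp2l1. The RUNX2 peaks of Tfcp2l1 and Nanog were in the lower part of their lists, outranking 21.7 and 13.7% and 38.8 and 26.6%. Those of Sox2 outranked 19.7 and 59.4%, and those of Klf4 42.1 and 86.0%. The RUNX2 calls of Sox2 and Tfcp2l1 were lost when the −log10 q had to reach 10.

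**Figure D4:**
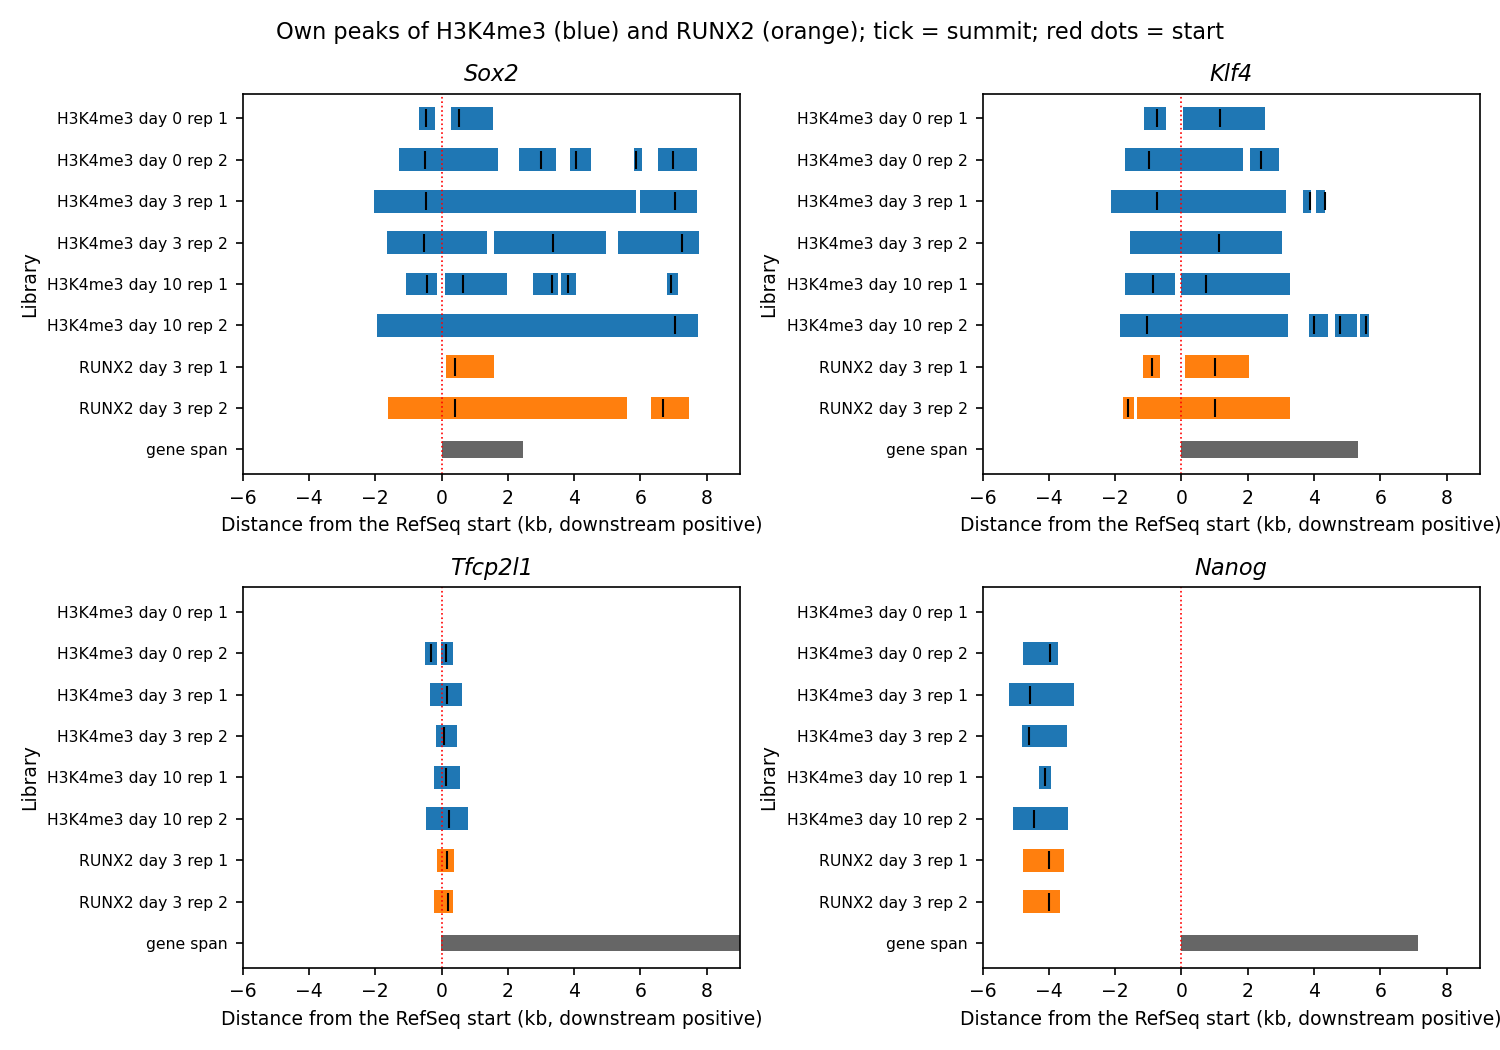
Own peaks of 4 pluripotency genes as bars from start to end, with summits as ticks, by library (rows) and distance from the first RefSeq start in kb (x axis, downstream positive); H3K4me3 is blue, RUNX2 orange, and the gene span grey (that of Tfcp2l1 runs beyond the axis). Sox2 and Klf4 have wide domains over the start, Tfcp2l1 a narrow peak at it, and Nanog peaks only at 3246 bp or more before it.

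By rank percentiles of the strongest own peak in the 6 H3K4me3 lists (0 where there was none), each of the 5 called genes was set beside the protein-coding genes with the nearest pattern, by Euclidean distance. Nearest to Sox2 were the transcription factor genes Osr1 (6.77) and Six2 (11.7), and Odf2l (13.5). Nearest to Klf4 were Mturn (9.44), Plcl1 (11.4) and Micall1 (11.5), and nearest to Nanog were Gstcd (8.48), Serpinb9 (9.89) and Abcc12 (11.0). Sall4 was nearest to Fam155a (9.08), the WNT ligand gene Wnt5b (10.8) and the neural factor gene Sox1 (11.6), and Tfcp2l1 to Klhl17 (5.14), Map7d2 (6.47) and Mrps15 (6.81).

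The wider pluripotency network was read from lists of known genes. Of 23 other genes of the naive or general pluripotent state, H3K4me3 was called at 6 on day 0, 8 on day 3 and 7 on day 10, with 0 gained and 0 lost, and 13 had none in any list. The shares over all protein-coding genes were 46.1%, 55.4% and 50.0% on the 3 days, and 31.7% in no list. Of all genes, 3.85% gained a called peak between day 0 and day 3, and 1.37% between day 0 and day 10. Between day 3 and day 10, 0.964% lost one. With lists this short, 0 is near these shares. The 8 were Nr5a2, Klf2, Klf5, Tbx3, Tet1, Trim71, Mybl2 and Rif1. Klf2, a relative of Klf4 that is prominent in endothelium, outranked 84.3 and 94.0% of the lists on day 3. Tbx3, a T-box gene also of limb mesenchyme, outranked 94.6 and 96.5%, with a domain from 119668383 to 119676573 on chromosome 5 in replicate 1. Nr5a2, an orphan nuclear receptor gene, resembled Tfcp2l1 in lacking a peak only in replicate 1 of day 0. Its fold enrichments on day 3 were 14.5 and 6.40. Utf1, encoding a chromatin protein of stem cells, had RUNX2 in both day 3 libraries (7.06 and 9.82) but H3K4me3 in replicate 1 alone (10.9).

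Of 13 genes of primed pluripotency and early lineages, 5 were called on day 0, 9 on day 3 and 6 on day 10, against the same shares of 46.1%, 55.4% and 50.0%. None of the 13 was gained or lost by the rule, against the same 3.85% and 1.37% gained and 0.964% lost. Fgf5 and Pou3f1, markers of the primed state, and Eomes, Gata6 and Gata4 were marked in all 6 lists, as were 42.9% of all genes. The strongest Fgf5 peak had fold enrichments of 20.5 and 12.2 on day 3. Otx2, Foxd3 and Sox17 were called on day 3 and had a peak in 1 library of each of the other days, and for none of the 3 did the strongest peaks of the 2 day 3 libraries overlap. Nor did they overlap for Eomes, Gata4 and Cdx2. All 9 genes of LIF and STAT3 signalling and of the MYC family were called on day 3 for H3K4me3 and for RUNX2, against 50.1% of all genes for both marks, and 7 of them on days 0 and 10, the exceptions being Lif and Mycn.

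The identity of the line was set beside marker lists. These were chosen with earlier results of these data known, so their counts are descriptions and not an independent test. All 10 chondrocyte and limb mesenchyme markers, among them Sox9, Prrx1 and Col1a1, were called on days 3 and 10 and 9 of them on day 0, against 55.4%, 50.0% and 46.1% of all genes. The exception on day 0 was Acan. Of 10 markers of pluripotent cells 1 was called on day 0, 2 on day 3 and 2 on day 10 (Sox2, then Sox2 and Nanog), below the same shares. Klf4, Klf2, Klf5, Tbx3, Tet1, Mybl2 and Rif1, which are not among those markers, were called on all 3 days. So were 42.9% of all genes. Of the 10 markers, the 6 without H3K4me3 in any list were Pou5f1, Zfp42, Dppa3, Dppa4, Dppa5a and Tdgf1, against 31.7% of all genes. H3K4me3 at a gene does not measure its RNA, which was not measured here.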

How the data were processed

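The deposited files used are 12 peak lists of ATDC5 ChIP-seq, 1 per library. FastQC, Trim Galore, the aligner HISAT2 2.2.0 and the peak caller MACS2 are named, per the submitters' processing notes. Settings, control and duplicate removal: not given in the sources used here. By the column order of the format, the authors' lists give each peak a score, a fold enrichment (a linear ratio), and p-value and q-value as −log10, and these describe or rank peaks within a list. The depth of each library is unknown, which leaves no counting interval. The notes name GRCm39, but 37.9 to 70.1% of H3K4me3 summits lay within 1 kb of a gene end of a RefSeq GRCm38.p6 table, against 6.12 to 7.98% after a shift of 20 kb; positions were read as GRCm38, counted from 1.

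Overlapping lines were merged, and a peak was in a window with at least 1 bp of overlap on an assembled chromosome. Calls needed both libraries, and library counts were compared by exact permutation. The 10 genes and all lists were chosen with earlier results of these data known. By rule the text names the 10 genes, neighbours that take a peak, the 3 genes nearest in pattern, and up to 6 called genes of each list in its order. Trim71, Mybl2, Rif1, Gata4, Sox17, Cdx2, Mycn, Klf10, Sox1 and the genes without a peak were named after their values were seen. Prrx1 and Col1a1 were named outside that order. Alternatives were other windows, stricter q limits, equal numbers of top peaks, summits in place of overlap, neighbours included, libraries left out, the replicate block and, added after seeing the data, ends of all annotated genes and omission of the 2 short lists. The overlap of peaks with genes and the own-peak rule were checked on made-up input, the other steps were not. Python 3.11.15, numpy 2.4.6, pandas 2.3.3 and matplotlib 3.10.9 were used.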

Additional observations from a re-analysis of the deposited data

How the results depend on the processing

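Of 360 single-gene calls recomputed under 9 settings (40 calls by gene, antibody and day), 30 changed. Most of the 40 were absent calls in the main setting. An absent call cannot change under stricter q limits, shorter lists or narrower windows, so 30 of 360 does not describe the called genes alone. The calls of Sox2 and Klf4 for H3K4me3 changed under none of the 9. Nanog lost its calls with windows of 1 kb or the span alone and Sall4 its call with a −log10 q of at least 5. With at least 10, Tfcp2l1 lost its H3K4me3 call of day 3 and Nanog that of day 10. With lists of equal length, Tfcp2l1 lost its H3K4me3 calls of days 3 and 10 and Nanog that of day 10. The difference in the number of genes with H3K4me3 between day 3 and day 0 was 1, was 0.5 with windows of 1 kb and with the span alone, and became 0 when ends of all annotated genes decided whose peak it was; leaving out 1 library gave -1 to 3, with -1 without replicate 1 of day 0. Between day 10 and day 3 the difference of -1 became 0 with a −log10 q of at least 10, with lists of equal length and with ends of all annotated genes, was -0.5 with at least 5 and -1.5 with neighbours included, and was -1 with any library left out. Between day 10 and day 0 the difference of 0 became -0.5 with windows of 1 kb, with the span alone and with neighbours included, 0.5 with a −log10 q of at least 5 and with lists of equal length, and 1 with at least 10; leaving out 1 library gave -2 to 2, and leaving out both short lists, replicate 1 of day 0 and of day 10, gave -2. The RUNX2 differences of 4 and -4 became 0 with lists of equal length, where each day 3 list kept as many top peaks as the shortest list compared, and were unchanged with any library left out. The causes were not tested. With the replicate numbers as pairs (a replicate block) the differences were 1, -1, 0, 4 and -4, with exact sign-flip p of 0.5 or 1. With 2 numbers and no label that ties them to cultures, libraries share only a number. The unknown depth limits every missing peak.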

Other observations

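Relatives of the pluripotency genes were read in the same way. Of 17 SALL, KLF, SOX, ESRR, CP2 and PRDM relatives, H3K4me3 was called at 9 (day 0), 14 (day 3) and 13 (day 10), and RUNX2 at 13 on day 3. All protein-coding genes were called at 46.1%, 55.4% and 50.0%, and at 53.8% for RUNX2. Klf3, Klf6, Klf9, Klf10 and Sall2 were called on all 3 days, as were 42.9% of all genes. Sox1, a neural relative of Sox2, was the gene of this list that lost its mark between days 3 and 10, against 0.964% of all genes. Its strongest peaks on day 3 (5.70 and 4.28) did not overlap each other.

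Of 9 germ cell genes, H3K4me3 was called at 0 (day 0), 3 (day 3) and 2 (day 10), against the same shares of all genes. Dazl, encoding a germ cell RNA-binding protein, had H3K4me3 in every list except that of replicate 1, day 0 (fold enrichments of 7.44 and 6.52 on day 3), and weak RUNX2 peaks on day 3 (3.67 and 3.47). Tfap2c, a factor of germ cell specification and trophoblast, had peaks on day 3 (4.28 and 5.88), the strongest of which did not overlap each other, and none on day 10. Ddx4, Sycp3, Nanos2, Nanos3 and Mael had none in any list, as did 31.7% of all genes.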
